A study of Rattus norvegicus with 6 samples.

Results

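The immediate early transcription factors, genes that neurons switch on within minutes to hours of stimulation without new protein synthesis, were followed across the neuron classes of the rat nucleus accumbens. The members were chosen by gene symbol: Fos, Fosb, Fosl2, Junb, Egr1, Egr3, Egr4, Nr4a1 and Nr4a3. Of the 9 symbols, 8 matched a gene among the 25629 genes of the files, and Junb was not analysed here. All rats were Sprague-Dawley, 90 to 120 days old, and had self-administered heroin, an opioid, for 7 days at 1 response per infusion, for 4 days at 3 responses, in a progressive ratio test on day 12 and again at 3 responses on days 13 and 14. They then received either saline or naloxone, an antagonist of opioid receptors, and the brains were taken 1 h later. Punches of the nucleus accumbens from 12 rats, 6 male and 6 female, were combined into 6 libraries of nuclei that each mixed both sexes. The 3 saline libraries are replicates 1, 2 and 3, and the 3 naloxone libraries are replicates 4, 5 and 6. Every group shared the heroin history and no heroin-naive group was analysed here, so an effect of naloxone as such and one that depends on the heroin history cannot be told apart. Tests over libraries measure the spread between pools of animals, and the labels do not say how many animals each pool holds.

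Fos, Fosb and Fosl2 encode leucine zipper proteins that pair with Jun proteins to form AP-1, which binds DNA at AP-1 sites. Egr1, Egr3 and Egr4 encode zinc finger proteins that bind GC-rich sites, and Nr4a1 and Nr4a3 encode orphan nuclear receptors that act without a known hormone. In striatal neurons, calcium and cyclic AMP signals lead to kinases that act on CREB, which binds the cyclic AMP response element (CRE), and on SRF with its partners, which bind the CArG box. Dopamine acting on D1 receptors raises cyclic AMP in one class of spiny projection neuron, while D2 receptors, and opioid receptors, lower it, and the transcripts of these genes last only minutes to a few hours.

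RefSeq promoter windows, which run from 250 bases before to 50 bases after the annotated start on the GRCr8 build, were matched by symbol for 5 of the 8 members. The 3 that hold a CArG box or a half-site of the CRE, defined below, are shown, each from 5′ to 3′ along the gene.
Egr1 (chr18:26736828-26737127, plus strand): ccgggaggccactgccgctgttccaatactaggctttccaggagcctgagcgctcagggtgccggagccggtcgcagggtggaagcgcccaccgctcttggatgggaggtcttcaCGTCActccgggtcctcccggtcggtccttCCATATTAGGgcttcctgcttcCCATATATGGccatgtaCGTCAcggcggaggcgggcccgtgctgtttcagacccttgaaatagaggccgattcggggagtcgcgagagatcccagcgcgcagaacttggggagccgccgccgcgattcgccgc
Egr4 (chr4:119607768-119608067, minus strand): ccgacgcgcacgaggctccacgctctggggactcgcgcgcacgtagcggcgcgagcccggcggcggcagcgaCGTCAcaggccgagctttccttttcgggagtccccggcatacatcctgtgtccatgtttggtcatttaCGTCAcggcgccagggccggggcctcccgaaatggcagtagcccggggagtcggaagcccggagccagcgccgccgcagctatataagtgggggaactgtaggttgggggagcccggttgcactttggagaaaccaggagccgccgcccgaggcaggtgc
Nr4a1 (chr7:134259888-134260187, plus strand): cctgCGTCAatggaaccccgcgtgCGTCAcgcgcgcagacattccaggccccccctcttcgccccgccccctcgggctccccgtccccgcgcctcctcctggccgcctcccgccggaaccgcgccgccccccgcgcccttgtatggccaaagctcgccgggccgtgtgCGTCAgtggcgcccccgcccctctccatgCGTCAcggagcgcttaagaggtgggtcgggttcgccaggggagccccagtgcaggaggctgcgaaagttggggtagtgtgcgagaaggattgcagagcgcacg
Capitals mark each match to TGACG, the half-site of the CRE, on either strand, where the reverse strand reads CGTCA, and each CArG box. The Egr1 window held 2 CArG boxes and 2 half-sites, the Egr4 window held 2 half-sites, and the Nr4a1 window held 4. The windows of Fosb and Fosl2 held neither. The full CRE, TGACGTCA, was in none of the 5 windows. A half-site was present in 21.2% of 33469 promoter windows of this length, the full CRE in 1.83% and a CArG box in 1.64%. The 9-base EGR site GCGNGGGCG, present in 4.98% of windows, was matched at 1 position in the Nr4a1 window, where it is left in lower case, and at 2 positions in that of Fosl2. These matches are a description of letters in the windows. The deposited counts were made on another build, mRatBN7.2.

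The 6 libraries held between 55739350 and 76272798 unique molecular identifiers (UMIs, counts of single RNA molecules) over 8094 to 15020 barcodes. The labels state 44592 nuclei, the files hold 64260 barcodes, and 61609 passed filters of at least 500 genes and at most 5% mitochondrial UMIs; removing 3075 called doublets left 58534. Of 63796 distinct barcodes, 463 occurred in more than 1 library. Neuron classes were defined by gates, which are minimum UMI numbers of marker genes, and not by the members. The gates held 3854 Drd1 nuclei, 4154 Drd2 nuclei and 2740 Chst9 nuclei of spiny projection neurons, and 630 of a further spiny type marked by Casz1, Otof and Mdfic. They also held 1137 nuclei marked by Drd3 and Adamtsl1, 396 cholinergic, 237 Sst/Npy/Nos1 and 469 Kit/Pthlh interneurons. Clusters made without the members placed 88.9% of the Drd1 nuclei and 90.7% of the Drd2 nuclei in clusters of their own class, but only 60.1% of the cholinergic and 62.7% of the Kit/Pthlh nuclei. Drd2 itself stood at 568 CPM in Drd2 nuclei and Drd1 at 47.2 CPM in Drd1 nuclei, where CPM is a gene's UMIs over all UMIs of the class, scaled to a fixed total as counts per 1e6. Naloxone replicate 6 was the deepest library, with a median of 15357 UMIs per Drd2 nucleus against 7556 in the shallowest, and shares and co-detections are therefore also given with nuclei thinned to a fixed number of UMIs. The part of this depth in the tests of levels was not tested.

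Members were scarce in every neuron class, and no class held a member in most of its nuclei. Nr4a3 was highest in Drd2 nuclei, at 19.1 ± 11.2 CPM (SD, n = 6 libraries), followed by the Casz1/Otof/Mdfic type at 15.8 ± 3.69 CPM and the Drd3/Adamtsl1 nuclei at 15.6 ± 11.7 CPM. Neighbours in this order overlapped: Drd2 nuclei exceeded the Casz1/Otof/Mdfic type in 4 of 6 libraries. Nr4a3 was lowest in cholinergic nuclei, at 4.98 ± 2.44 CPM. Its relative Nr4a1 was highest in the Casz1/Otof/Mdfic type, at 7.58 ± 3.52 CPM, which exceeded Drd2 nuclei (6.84 ± 2.92 CPM) in 3 of 6 libraries, and lowest in Chst9 nuclei at 2.18 ± 0.998 CPM.

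Among the zinc finger members, Egr1 was highest in spiny nuclei. It stood at 13.8 ± 5.99 CPM in the Casz1/Otof/Mdfic type, above Drd2 nuclei (9.31 ± 2.36 CPM) in 5 of 6 libraries. Drd1 nuclei held 5.59 ± 1.11 CPM and exceeded the Sst/Npy/Nos1 interneurons (3.34 ± 2.10 CPM) in 6 of 6 libraries, while the Kit/Pthlh interneurons held 0.327 ± 0.8 CPM. Egr1 thus ranked lower in the 3 interneuron classes than in the spiny classes. Egr3 ranged from 3.30 ± 2.17 CPM in Drd3/Adamtsl1 nuclei to no UMI in the Sst/Npy/Nos1 nuclei, a count of 0 that allows up to 1.61 CPM. Egr4 ranged from 2.39 ± 1.94 CPM in Drd2 nuclei to no UMI in the same interneurons, under the same limit.

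Fosl2, an AP-1 subunit, was highest in Drd3/Adamtsl1 nuclei at 10.5 ± 6.26 CPM and in Drd2 nuclei at 7.39 ± 2.21 CPM, which were ordered this way in 3 of 6 libraries, and lowest in Chst9 nuclei at 1.88 ± 1.13 CPM. Fosb was highest in Drd2 nuclei at 3.86 ± 4.29 CPM. It gave no UMI in cholinergic or Kit/Pthlh nuclei, which allows up to 0.597 and 0.557 CPM. Fos ranged only from 0.905 ± 0.338 CPM in Drd1 nuclei to 3.68 ± 4.63 CPM in Sst/Npy/Nos1 interneurons, and no neighbours in its order differed in more than 4 of 6 libraries. The heat map of levels sets all 8 members beside the glial classes.

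**Figure D1:**
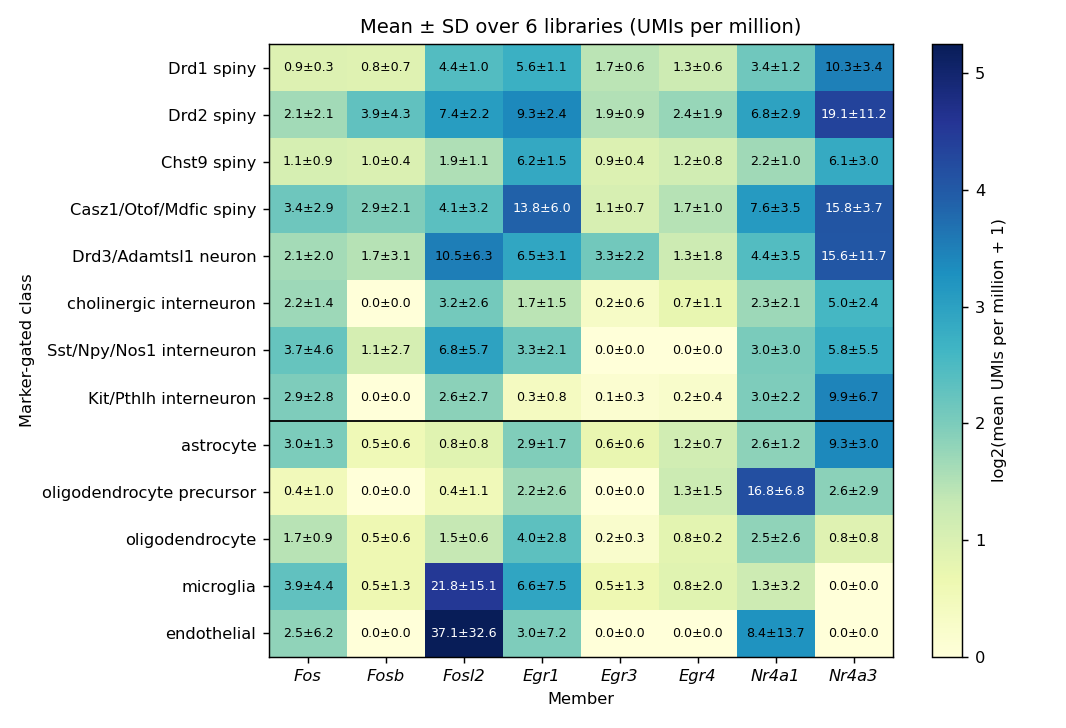
Mean CPM (± SD over the 6 libraries, printed in each cell) of the 8 members (columns) in 8 gated neuron classes and, under the line, 5 glial or vascular classes (rows); colour gives log2(mean CPM + 1). Nr4a3 is highest in Drd2 nuclei among the neuron classes, and Fosb is at 0 in cholinergic and Kit/Pthlh interneurons.

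Free RNA in droplets can give such low counts, so each member was set beside oligodendrocytes, a class that is not neuronal (10862 nuclei, median 1742 UMIs against 10484 in Drd1 and 9348.5 in Drd2 nuclei). Nr4a3 exceeded its oligodendrocyte level (0.843 ± 0.813 CPM) in 6 of 6 libraries in Drd1 and in Drd2 nuclei. Fos held 0.905 ± 0.338 CPM in Drd1 nuclei and 1.71 ± 0.869 CPM in oligodendrocytes, and was above in 2 of 6 libraries in Drd1 and in 3 of 6 in Drd2 nuclei. Nr4a1 in Drd1 nuclei was above its oligodendrocyte level in 3 of 6 libraries, and in Drd2 nuclei in 5 of 6. Per nucleus without thinning, the shares were higher in Drd1 nuclei, which were deeper. A Fos UMI was in 0.978 ± 0.401% of Drd1 nuclei and 0.306 ± 0.146% of oligodendrocytes, and an Nr4a1 UMI in 2.42 ± 1.32% and 0.456 ± 0.394%. With nuclei thinned to a fixed number of UMIs, the mean shares were lower in Drd1 nuclei. Fos then gave 0% against 0.158 ± 0.0821% in oligodendrocytes, above in 0 of 6 libraries. Nr4a1 gave 0.163 ± 0.194% against 0.262 ± 0.233%, above in 2 of 6. In Drd2 nuclei both thinned shares were above in 4 of 6. The part of free RNA in these low counts was not tested. In oligodendrocytes Fos stood at 0.782, 1.22 and 0.970 CPM with saline and 2.38, 2.99 and 1.90 CPM with naloxone, and Nr4a1 at 0, 1.82 and 0.582 CPM with saline and 2.81, 7.27 and 2.71 CPM with naloxone. Both were thus higher in every naloxone library, 2 of the 7 members with at least 10 UMIs there, where 16.6% of 14660 genes did not overlap.

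Drd2 nuclei held more of most members than Drd1 nuclei of the same library. Fos, Fosl2, Egr1 and Nr4a1 were higher in Drd2 nuclei in 6 of 6 libraries, 4 of 8 members, where 10.5% of the 13254 genes tested did so. Their ratios of mean CPM were 2.36 for Fos, 1.70 for Fosl2, 1.67 for Egr1 and 2.02 for Nr4a1. An exact permutation test that flips signs over the 6 libraries, two-sided, gave each p = 0.03125, the smallest possible, and 0.0625 after Benjamini-Hochberg adjustment over the 8 members, so no member was called. Fosb (ratio 4.55) and Nr4a3 (ratio 1.86) were higher in 5 of 6 libraries, Egr4 (ratio 1.85) in 4 and Egr3 (ratio 1.09) in 3. Without naloxone replicate 6 the ratios of Fos and Fosb were 1.31 and 2.97. With gates at 2 times the marker UMIs, 0 members were higher in all 6 libraries and the ratios lay between 1.09 and 1.79.

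Comparing naloxone with saline asks whether blocking opioid receptors for 1 h moved these genes in rats with one heroin history. In Drd2 nuclei every member had a positive log2 change, as did 6358 of the 12595 genes tested, and none passed the test. Members were often found in the same nuclei, as described below, so their signs are not independent. Without naloxone replicate 6, 5 of 8 members were positive, with a median log2 change of 0.097. Egr4 stood at 1.10, 0.717 and 1.3 CPM in saline replicates 1, 2 and 3 and 1.5, 5.25 and 4.45 CPM in naloxone replicates 4, 5 and 6. All 3 naloxone libraries were above all 3 saline libraries, and Egr4 was the only one of the 8 members whose groups did not overlap, against 17.4% of the 12595 genes tested. Its log2 change in edgeR's quasi-likelihood test was 1.92 ± 0.43 (SE), with a Benjamini-Hochberg adjusted p of 0.121. With classes taken from clusters in place of gates it was called, at a log2 change of 2.24 and an adjusted p of 0.0277, where 0.54% of all genes were.

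Nr4a3, one of the nuclear receptors, stood at 14.6, 13.6 and 13.1 CPM with saline and 7.52, 29.6 and 36.3 CPM with naloxone. Replicates 5 and 6 were above every saline library and replicate 4 was below every one. The log2 change was 0.92 ± 0.35 (SE) with an adjusted p of 0.355 by edgeR. Fosb, the AP-1 subunit whose splice form deltaFosB builds up in striatum on repeated drug exposure, stood at 3.44, 1.31 and 1.3 CPM with saline and 2.36, 2.27 and 12.5 CPM with naloxone. Replicate 6 was far above all others, and the groups overlapped. Its log2 change of 1.69 ± 0.63 (SE) had an adjusted p of 0.332, and fell to 0.26 without that replicate.

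Fos, the best known marker of recent neuronal activity, stood at 2.04, 1.08 and 1.52 CPM with saline and 0.860, 0.992 and 6.36 CPM with naloxone. Apart from replicate 6, every naloxone library was below every saline library, and the log2 change of 1.01 ± 0.63 (SE) became -0.68 without it. Fosl2 stood at 8.46, 5.86 and 5.42 CPM with saline and 5.59, 7.94 and 11.1 CPM with naloxone (log2 change 0.41 ± 0.26 (SE)), with overlapping groups. Nr4a1 stood at 7.2, 5.86 and 6.07 CPM with saline and 3.01, 6.95 and 12.0 CPM with naloxone, again with replicate 6 highest and replicate 4 lowest, and its log2 change of 0.31 ± 0.34 (SE) became -0.28 without replicate 6.

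Egr1 in Drd2 nuclei stood at 9.86, 8.01 and 9.0 CPM with saline and 6.45, 9.07 and 13.5 CPM with naloxone, a log2 change of 0.18 ± 0.24 (SE) that became -0.18 without replicate 6. Egr3, which is induced downstream of growth factor and activity signals, stood at 2.19, 0.836 and 1.95 CPM with saline and 3.01, 0.851 and 2.29 CPM with naloxone with overlapping groups (log2 change 0.29 ± 0.47 (SE)). Across Drd2 nuclei 0 of 8 members were called by edgeR, where 0.0794% of all genes were called in either direction, 3 had an unadjusted p under 0.05 (Egr4, Fosb and Nr4a3), as did 11.1% of all genes, and DESeq2 called 0 (0.377% of all genes). Without the filter on low counts 3 were called (Egr4, Fosb and Nr4a3), where 1.68% of all genes were, and without naloxone replicate 4, 2 were (Egr4 and Nr4a3), where 0.278% were. The summed level of the 8 members was 48.9, 37.3 and 39.7 CPM with saline and 30.3, 63.0 and 98.3 CPM with naloxone. The naloxone libraries therefore held both the lowest and the 2 highest sums.

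**Figure D2:**
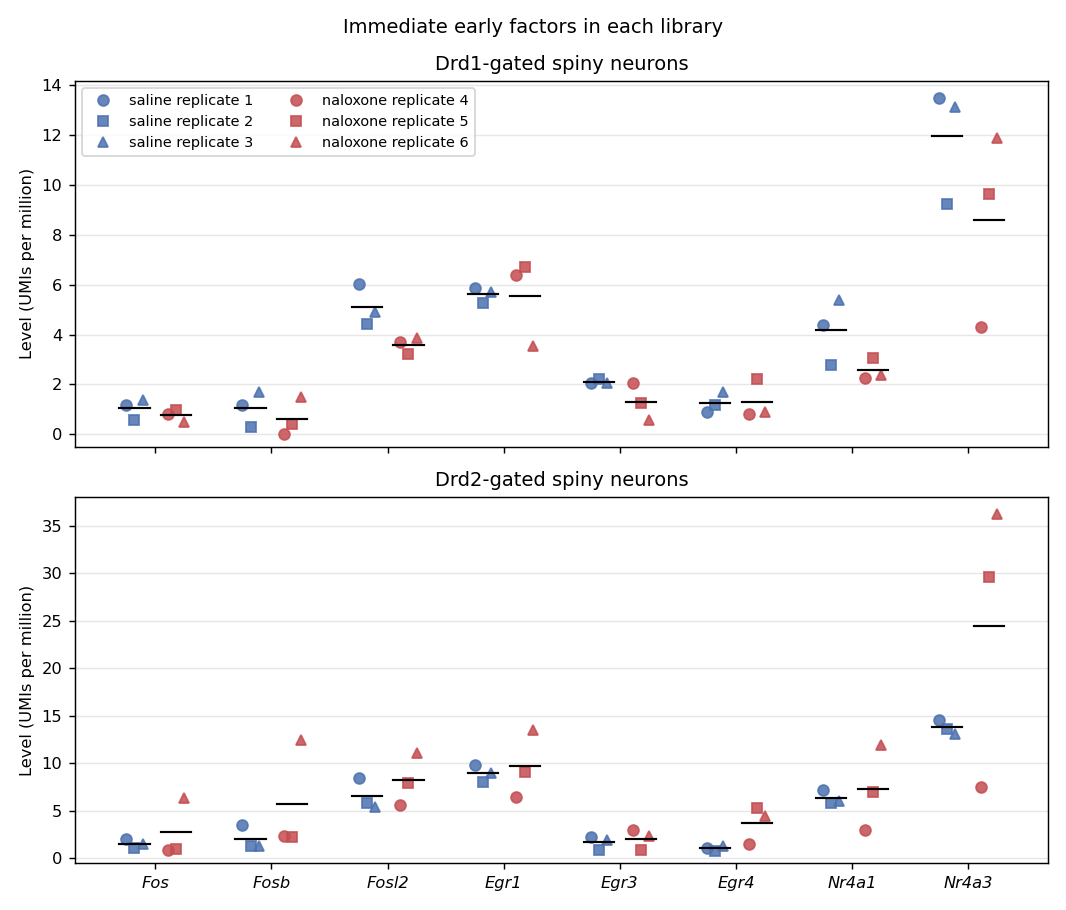
CPM of each member in each library, for Drd1 nuclei (upper panels) and Drd2 nuclei (lower panels); points are libraries, saline and naloxone apart, and black lines are group means. In Drd2 nuclei Egr4 is higher in every naloxone library, and naloxone replicate 6 is highest for Fos, Fosb, Fosl2, Egr1, Nr4a1 and Nr4a3.

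In Drd1 nuclei all 5 members that passed the filter on low counts had negative log2 changes, where 6318 of the 12473 genes tested had positive ones. Without naloxone replicate 6, 2 of the 6 members tested were positive. Fosl2 stood at 6.01, 4.41 and 4.91 CPM with saline and 3.71, 3.22 and 3.86 CPM with naloxone. All naloxone libraries were below all saline libraries, 1 of 5 members, where 17.8% of the 12473 genes tested did not overlap. Its log2 change was -0.51 ± 0.23 (SE) with an adjusted p of 0.423 by edgeR. Nr4a1 stood at 4.40, 2.79 and 5.37 CPM with saline and 2.26, 3.08 and 2.37 CPM with naloxone, with 1 saline library below the highest naloxone library, a log2 change of -0.72 ± 0.29 (SE) and an adjusted p of 0.378, at CPM not above that of oligodendrocytes in 3 of 6 libraries.

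Nr4a3 in Drd1 nuclei stood at 13.5, 9.25 and 13.1 CPM with saline and 4.32, 9.65 and 11.9 CPM with naloxone, overlapping, with a log2 change of -0.41 ± 0.27 (SE). Egr3 stood at 2.05, 2.20 and 2.06 CPM with saline and 2.06, 1.26 and 0.593 CPM with naloxone, and only replicate 4 reached the saline range (log2 change -0.85 ± 0.41 (SE), adjusted p 0.449 by edgeR). Egr1 was close to level at 5.87, 5.29 and 5.71 CPM with saline and 6.38, 6.71 and 3.56 CPM with naloxone (log2 change -0.080 ± 0.25 (SE)), with the lowest value in replicate 6. The 3 other members did not pass the filter: Fos lay between 0.495 and 1.37 CPM, Egr4 between 0.824 and 2.24 CPM, and Fosb between 0, which allows up to 0.618 CPM in that library, and 1.71 CPM. In all, 0 of 5 tested members were called by edgeR in Drd1 nuclei (0.104% of all genes were), 2 had an unadjusted p under 0.05 (Fosl2 and Nr4a1), as did 11.7% of all genes, and DESeq2 called 0 of 8 (0.248% of all genes).

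The difference between the classes was larger than either change alone for Nr4a3. Its ratio of CPM in Drd2 to Drd1 nuclei of the same library was 1.08, 1.47 and 0.998 in saline replicates 1, 2 and 3 and 1.74, 3.07 and 3.05 in naloxone replicates 4, 5 and 6. Every naloxone ratio was above every saline ratio. The share of all genes with ratios separated in this way was not computed. For levels in Drd1 and Drd2 nuclei taken singly, 17.8% and 17.4% of the genes tested did not overlap. In a model of all 12 sums with library as a block, the naloxone change in Drd2 minus that in Drd1 nuclei was 1.38 ± 0.19 (SE) on the log2 scale, with an adjusted p of 0.000981 by edgeR. It was the only one of the 8 members called, where 0.347% of the 13254 genes tested were. It stayed called when each library was left out in turn, with adjusted p from 9.26e-05 to 0.0367. The difference combines a negative log2 change in Drd1 nuclei with a positive one in Drd2 nuclei, neither of which was called.

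The other 7 members gave positive differences that did not pass the test, where 6753 of the 13254 genes tested were positive. The values were 2.31 ± 0.61 (SE) for Fosb (adjusted p 0.135 by edgeR), 1.93 ± 0.53 (SE) for Egr4 (adjusted p 0.162), 1.57 ± 0.74 (SE) for Fos (adjusted p 0.623) and 1.13 ± 0.58 (SE) for Egr3 (adjusted p 0.656). Nr4a1 gave 1.10 ± 0.36 (SE) (adjusted p 0.337), Fosl2 0.96 ± 0.28 (SE) (adjusted p 0.185) and Egr1 0.32 ± 0.33 (SE) (adjusted p 0.871). Without naloxone replicate 6 the values of Fos and Egr1 became -0.46 and -0.36. The Drd1 gate left out nuclei with a UMI of Casz1 or Mdfic and the Drd2 gate did not. With the same exclusion in both, the Nr4a3 difference was 1.51 (adjusted p 0.000599 by edgeR), and Fosb was called too (2 of the members tested; 0.267% of all genes). With classes from clusters Nr4a3, Egr4 and Fosb were called, where 1.39% of all genes were.

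**Figure D3:**
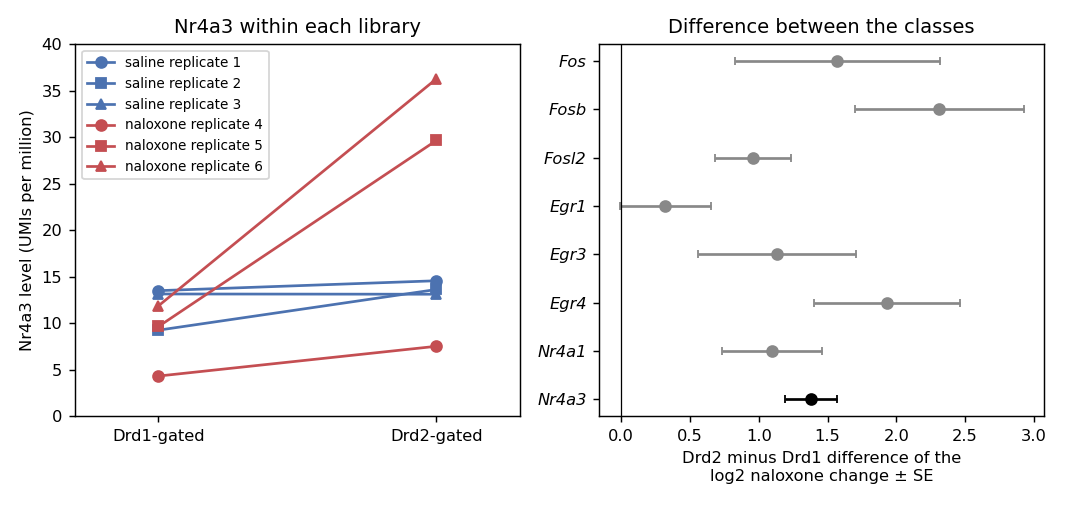
Left, Nr4a3 CPM in Drd1 and Drd2 nuclei with a line joining the values of each library; right, the naloxone log2 change in Drd2 minus that in Drd1 nuclei for each member, with bars of ± 1 SE and black points where the adjusted p was under 0.05. Naloxone replicates 5 and 6 have the steepest lines, and Nr4a3 is the only black point.

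Pathway lists that surround the members were read in the same fits. Of the other rapid regulators such as Npas4 and Nr4a2, 5 of 18 could be tested in Drd1 nuclei (median log2 change -0.13) and 6 in Drd2 nuclei (median -0.16). Of 13 feedback inhibitors, 7 were tested in each class, with medians of -0.19 and 0.11. Of 21 upstream factors and kinases, 19 were tested in each, with medians of -0.072 and 0.045. Of 15 effector targets, 9 and 10 were tested, with medians of -0.046 and 0.24. edgeR called 0 of these genes in either class, beside a median over all genes of 0.0030 in Drd1 and 0.0020 in Drd2 nuclei. Under an unadjusted p of 0.05 by edgeR were 11 of 40 and 5 of 42, where 11.7% and 11.1% of all genes were, so that the Drd2 count is near that of all genes. DESeq2, which called 0.248% and 0.377% of all genes, called 1 gene of the lists in each class, Mrtfa, a coactivator of serum response factor, with edgeR log2 changes of 0.37 ± 0.088 (SE) and 0.40 ± 0.095 (SE).

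In the difference between the classes, the effector target Homer1, a postsynaptic scaffold gene, was called at 0.66 ± 0.11 (SE; adjusted p 0.00802 by edgeR), 1 of 11 tested. The feedback inhibitor Spred1, which restrains Ras signalling, was called at 0.40 ± 0.083 (adjusted p 0.0338), 1 of 10. Of the other rapid regulators 0 of 8 and of the upstream genes 0 of 19 were called. With unadjusted p under 0.05 by edgeR were 1 of the 8 rapid regulators, 3 of the 10 feedback inhibitors, 5 of the 19 upstream genes and 3 of the 11 effector targets. Of all 13254 genes tested, 1050 were. In this fit 0.347% of all genes were called. The list medians were 0.27 for effector targets, 0.46 for feedback inhibitors, 0.52 for rapid regulators and 0.084 for upstream genes, beside 0.00474 over all genes.

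In Chst9 spiny nuclei, which also carried the opioid receptor gene Oprm1 at 277 CPM, only Egr1 and Nr4a3 passed the filter. Egr1 stood at 4.16, 6.2 and 5.30 CPM with saline and 5.82, 7.76 and 8.08 CPM with naloxone, and Nr4a3 at 3.33, 6.2 and 6.23 CPM with saline and 3.77, 5.06 and 11.7 CPM with naloxone. Both groups overlapped, the log2 changes were 0.47 ± 0.29 (SE) and 0.42 ± 0.39 (SE), and edgeR and DESeq2 each called 0 members, where they called 0.124% and 0.0579% of all genes. Under an unadjusted p of 0.05 by edgeR were 0 members and 8.81% of all genes. In the Casz1/Otof/Mdfic type Egr1 gave a log2 change of 0.45 ± 0.37 (SE) and Nr4a3 one of 0.029 ± 0.33 (SE), neither called (background 0.0123%). There the Nr4a3 level was 13.7, 20.6 and 11.9 CPM with saline and 20.1, 15.2 and 13.4 CPM with naloxone, over only 49 to 139 nuclei per library. With classes from clusters Nr4a3 was called there at -1.75, the opposite sign, where 0.068% of all genes were called.

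In Drd3/Adamtsl1 nuclei, marked by the D3 dopamine receptor, only Nr4a3 passed the filter. Nr4a3 stood at 18.5, 32.9 and 22.1 CPM with saline and 4.18, 1.25 and 14.7 CPM with naloxone, every naloxone library below every saline library, where 10.9% of the 8241 genes tested did not overlap. Its log2 change was -1.46 ± 0.50 (SE) with an adjusted p of 0.960 and an unadjusted p of 0.0104 by edgeR, so it was not called, though without the filter on low counts it was, where 0.197% of all genes were (background with the filter 0.0121%). With classes from clusters Nr4a3 did not pass the filter, and the 1 member that did, Fosl2, gave a log2 change of 0.073 ± 0.49 (SE). The summed level of the 8 members was 52.7, 76.1 and 67.1 CPM with saline and 27.2, 15 and 34.5 CPM with naloxone, again without overlap. In Kit/Pthlh interneurons Nr4a3 gave a log2 change of 0.67 ± 0.58 (SE), not called (background 0.167%). No member passed the filter in cholinergic or Sst/Npy/Nos1 interneurons, where edgeR called 0% and 0.0199% of genes.

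The share of nuclei with at least 1 UMI of any member was 17.0 ± 3.92% (SD, n = 3) with saline and 20.9 ± 6.75% with naloxone in Drd2 nuclei, and 15.7 ± 3.37% and 14.8 ± 1.49% in Drd1 nuclei. Oligodendrocytes, at much lower depth, gave 1.5 ± 0.501% and 2.55 ± 0.482%. After each nucleus was thinned to 1000 UMIs, the Drd2 share was 2.81 ± 0.186% with saline and 3.80 ± 1.17% with naloxone, the Drd1 share 2.28 ± 0.482% and 1.87 ± 0.331%, and the Chst9 share 1.47 ± 0.166% and 2.20 ± 0.605%, beside 0.914 ± 0.346% and 1.48 ± 0.506% in oligodendrocytes. The Drd2 libraries did not overlap in this thinned share, but with 3 against 3 the exact two-sided permutation p of 0.1 is the smallest possible. Of 24 such tests of single members in the 3 spiny classes, 3 reached it, and the smallest Benjamini-Hochberg adjusted p was 0.8. The shares thus gave no difference between treatments that could be called.

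The members were concentrated in few nuclei. In the Drd2 class 103 of 4154 nuclei, 2.48%, held UMIs of at least 3 different members, and these carried 59.7% of the 2348 member UMIs of the class. Up to 7 members were found in 1 nucleus, and 26 nuclei held 5 or more. In Drd1 nuclei 48 of 3854, 1.25%, held at least 3 members and carried 39.1% of 1281 member UMIs. These nuclei were chosen by their members, which raises their share of member UMIs. The share expected if members were independent was not computed. Saline and naloxone libraries contributed 51 and 52 of the Drd2 nuclei with at least 3 members. By library they made up 2.53, 1.73 and 2.36% of Drd2 nuclei with saline and 1.91, 2.66 and 4.36% with naloxone, overlapping ranges, with the highest share in the deepest library. Nr4a3 was present in 87.4% of the 103, Nr4a1 in 75.7%, Fosl2 in 68.9%, Egr1 in 58.3% and Egr3 in 7.77%. Egr3 was mostly found elsewhere, with 11.7% of its UMIs in these nuclei. Most UMIs of Egr1 and Egr4 also lay elsewhere, with 27.6% and 42.3% in these nuclei.

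Pairs of members were found together more often than if independent. Summed over the 28 pairs, 759 co-detections were seen in Drd2 nuclei, against 162 if the members were independent within 10 strata of depth, and 308 against 80.9 in Drd1 nuclei. A nucleus with several members enters several pairs, so the pairs are not independent of each other. Nr4a1 and Nr4a3 were found together in 86 nuclei against 9.76 expected in the Drd2 class, with a log2 odds ratio of 3.77 ± 0.89 (SD, n = 6 libraries), above 0 in 6 of 6 libraries. Fosl2 joined both nuclear receptors: 74 nuclei against 11.8 expected with Nr4a3 and 59 nuclei against 7.43 with Nr4a1. Fos and Fosb shared 18 nuclei against 1.46 expected.

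Egr3 was the exception in Drd2 nuclei. With Fosl2 it shared 2 nuclei against 3.41 expected and with Nr4a1 3 nuclei against 2.94, and the 7 pairs with Egr3 had the 7 lowest mean log2 odds ratios. Of all 28 pairs, 26 had a mean log2 odds ratio above 0 in Drd2 nuclei and 24 in Drd1 nuclei, and 12 and 6 were above 0 in all 6 libraries. The median over pairs was 1.75 and 0.69. The exact sign-flip permutation test called 0 pairs, since its smallest p of 0.03125 gave adjusted values no lower than 0.0729 in Drd2 and 0.146 in Drd1 nuclei; 12 and 6 pairs had an unadjusted p under 0.05. With every nucleus thinned to 2000 UMIs, co-detections fell to 125 against 12.3 expected in Drd2 nuclei and to 19 against 3.9 in Drd1 nuclei, where the median log2 odds ratio was -0.026.

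**Figure D4:**
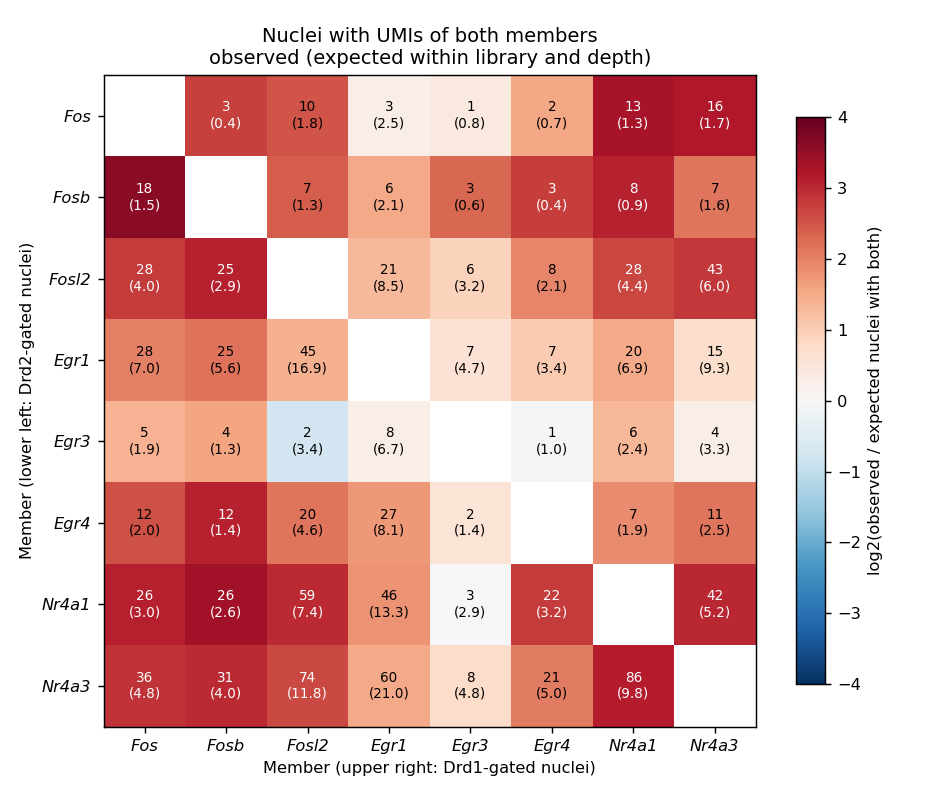
Nuclei in which each pair of members was detected together, with the number expected under independence within depth strata in brackets, for Drd2 nuclei (lower left) and Drd1 nuclei (upper right); colour is the log2 ratio of observed to expected. Nr4a1 with Nr4a3 gives the largest count in Drd2 nuclei, 86, and the Egr3 cells stay near the expected numbers.

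Within the Drd2 gate the members were unevenly spread over the clusters, which were made without them. The largest, with 2235 nuclei, held a summed level of 35.0 ± 6.88 CPM (SD, n = 6) and 1.61% of its nuclei had at least 3 members. A cluster of 1241 nuclei held 70.9 ± 62.8 CPM, and another of 293 nuclei held 129 ± 80.6 CPM, with 7.85% at 3 or more members. Nr4a3 in the largest cluster stood at 15.7, 9.18 and 10.3 CPM with saline and 5.19, 15.8 and 14.0 CPM with naloxone, and in the cluster of 1241 nuclei at 2.28, 14.5 and 17.3 CPM with saline and 10.9, 51.3 and 77.1 CPM with naloxone. Naloxone replicates 5 and 6, the highest of the class as a whole, were close to the saline values in the largest cluster and well above them in the other. The groups overlapped in both, and the difference between clusters was not tested. In the smallest it stood at 43.9, 21.8 and 5.32 CPM with saline and 19.9, 90.1 and 45.2 CPM with naloxone. The smallest of these clusters also carried Casz1 at 115 CPM, against 2.37 and 0.968 CPM in the others. Its part in the Drd2 totals is given by the gate without Casz1 or Mdfic UMIs, under which the Drd2 to Drd1 ratios were 1.87 for Nr4a1 and 1.86 for Nr4a3.

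Each library mixed male and female tissue, and nuclei were assigned by Xist or Y-linked UMIs. In naloxone replicate 6 the 211 male Drd2 nuclei held a summed member level of 170.4 CPM and 16 nuclei with at least 3 members, and the 237 female nuclei held 47.4 CPM and 5 such nuclei. The high values of that library thus came mostly from nuclei of 1 sex. In saline replicate 1 the order was opposite, with 71.3 CPM in female and 20.5 CPM in male Drd2 nuclei. Female and male nuclei of a library come from different animals, so sex and animal cannot be told apart. Of 16 member and class comparisons, Egr3 in Drd1 nuclei was higher in female nuclei in 6 of 6 libraries (2.10 ± 0.886 against 1.37 ± 0.739 CPM), with an exact sign-flip permutation p of 0.03125 and an adjusted p of 0.5. In Drd2 nuclei the order was opposite, with Egr3 at 1.55 ± 0.826 CPM in female and 2.32 ± 1.08 CPM in male nuclei. Female nuclei were higher there in 1 of 6 libraries.

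To see what else these nuclei carried, nuclei with at least 3 members were compared with as many nuclei of the same library and depth that held none. The members defined the groups and were left out. In Drd1 nuclei 206 genes were higher and 59 lower of 2828 tested (9.37% in all), and in Drd2 nuclei 396 were higher and 116 lower of 4397 (11.6%), by edgeR with library as a block. Higher in both classes were 154 genes, 74.8% of those higher in Drd1 and 38.9% of those higher in Drd2 nuclei, 17 were lower in both, and 0 moved in opposite directions. Lower genes made up 2.09% and 2.64% of those tested. Without naloxone replicate 6 the Drd2 counts were 247 higher and 68 lower, and without saline replicate 3 the Drd1 count was 129 higher. Leaving out saline replicate 1 gave 28 genes lower in Drd1 nuclei, and leaving out naloxone replicate 5 gave 58 lower in Drd2 nuclei.

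The same pair of secretory genes led in both classes. Nts, which encodes the neuropeptide neurotensin, stood at 493 ± 483 CPM (SD, n = 6) against 11.2 ± 11.1 CPM in Drd2 nuclei and at 231 ± 139 CPM (SD, n = 6) against 5.35 ± 8.54 CPM in Drd1 nuclei, log2 differences of 5.91 ± 0.41 and 5.19 ± 0.46 (SE). Pcsk1, which encodes a protease that cleaves peptide precursors, gave 5.12 ± 0.38 and 4.76 ± 0.45. Both were higher in 6 of 6 libraries in each class. Of the list of other rapid regulators, Npas4, an activity-dependent factor of neurons, stood at 63.2 ± 31.6 CPM (SD, n = 6) against 2.75 ± 4.56 CPM in Drd2 nuclei (log2 4.98 ± 0.62), no other gene of the list passed the filter there, and none did in Drd1 nuclei. Genes this low in negative nuclei, as Nts and Npas4 were, pass a filter on low counts only through the positive nuclei, so counts of higher genes among those tested depend on the filter.

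Further genes higher in member-positive Drd2 nuclei were Kdm6b (a histone demethylase, log2 4.92 ± 0.82), Plaur (the urokinase receptor, 4.52 ± 0.93), Pdlim3 (3.86 ± 0.73), Tiparp (3.79 ± 0.34), Ism1 (3.58 ± 0.33), the phosphatase gene Cdc14a (3.55 ± 0.80) and Dusp14 (3.19 ± 0.46), a phosphatase of MAP kinases. In Drd1 nuclei they were Btbd8 (3.52 ± 0.41), Sik2 (a salt-inducible kinase, 3.13 ± 0.23), Gfra1 (a receptor for the growth factor GDNF, 2.96 ± 0.54), Ubash3b (2.87 ± 0.43), Maml3 (a Notch coactivator, 2.79 ± 0.39), Slc7a8 (an amino acid transporter, 2.77 ± 0.29), Peli1 (a ubiquitin ligase, 2.74 ± 0.23) and Ntrk2 (2.68 ± 0.26). Ntrk2, the receptor for BDNF, stood at 1728 ± 611 CPM (SD, n = 6) against 294 ± 118 CPM in Drd1 nuclei. Each of these genes was higher in 6 of 6 libraries of its class.

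Lower in member-positive Drd1 nuclei were Pde11a (a cyclic nucleotide phosphodiesterase, log2 -2.86 ± 0.51), Map2k6 (a kinase upstream of p38, -2.39 ± 0.52), Vwa5al1 (-2.34 ± 0.63), Kirrel1 (-2.05 ± 0.56) and Cntnap3 (-2.02 ± 0.37). In Drd2 nuclei Cyp7b1 (an oxysterol hydroxylase, -1.70 ± 0.34), Dclk3 (a kinase of striatal neurons, -1.62 ± 0.28), Mrps27 (-1.54 ± 0.46), Eml1 (-1.45 ± 0.36) and Washc3 (-1.43 ± 0.41) were lower. Of these, Kirrel1, Mrps27 and Washc3 lost the call when 1 library was left out, with adjusted p up to 0.0953, 0.0605 and 0.0712 by edgeR. DESeq2 gave Mrps27, Eml1 and Washc3 adjusted p of 0.186, 0.105 and 0.212. With nuclei matched on cluster as well, a choice made after seeing the data, edgeR gave Cyp7b1 and Washc3 adjusted p of 0.0542 and 0.0560. That fit gave no value for Pde11a, Vwa5al1 and Mrps27, so their falls were not tested with nuclei of the same cluster. DESeq2 gave Vwa5al1 no adjusted p.

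Of the 15 effector targets only Homer1, Rheb and Scg2 passed the filter in Drd1 nuclei, and these and Penk in Drd2 nuclei. Each was higher in member-positive nuclei, where 7.28% and 9.01% of all genes were. These counts too depend on the filter on low counts. In Drd1 nuclei Rheb stood at 162 ± 97.2 CPM against 41.8 ± 23.0 CPM, and Scg2 at 201 ± 138 CPM against 53.7 ± 31.8 CPM. Targets that were low in both kinds of nuclei could not be tested, so the counts cannot be read against these shares. Homer1 stood at 2149 ± 1638 CPM (SD, n = 6) against 366 ± 84.4 CPM in Drd2 nuclei and at 1605 ± 990.1 CPM (SD, n = 6) against 303 ± 144 CPM in Drd1 nuclei. Rheb, a GTPase that activates the mTOR pathway, gave 2.90 ± 0.26 and 2.22 ± 0.37 on the log2 scale, and Scg2, a granin of secretory vesicles, 2.34 ± 0.37 and 1.78 ± 0.33. Penk, the enkephalin precursor of Drd2 neurons, gave 0.90 ± 0.23 in Drd2 nuclei (adjusted p 0.0142 by edgeR, up to 0.0746 with 1 library left out, and 0.0798 by DESeq2).

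The feedback inhibitor Spred1 was higher in both classes (1.40 ± 0.17 in Drd2 and 1.09 ± 0.25 in Drd1 nuclei). Of the 13 feedback inhibitors only it and, in Drd2 nuclei, Dusp14 passed the filter, and Dusp14 stood at 123 ± 101 CPM (SD, n = 6) against 14.6 ± 10.7 CPM. In Drd1 nuclei the adjusted p of Spred1 reached 0.0651 with 1 library left out. Of the upstream genes 0 of 10 were higher in Drd1 and 0 of 15 in Drd2 nuclei by edgeR, near the shares of all genes given above. Lower among them were Mrtfb, an SRF coactivator, in Drd1 nuclei (-0.78 ± 0.24; adjusted p 0.0421 by edgeR, up to 0.127 without 1 library) and Rps6ka5, the CREB and histone kinase known as MSK, in Drd2 nuclei (-0.87 ± 0.17; 219.9 ± 62 CPM (SD, n = 6) against 428 ± 65.2 CPM; adjusted p 0.00183).

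Markers of other classes moved with this comparison, and their part in it was not tested. Otof, the only 1 of the Casz1, Otof and Mdfic markers that the Drd1 gate does not leave out, was 224 CPM (range 165 to 332) against 69.5 CPM (range 0 to 115) in member-positive and member-negative Drd1 nuclei, higher in 6 of 6 libraries. In Drd2 nuclei these 3 markers together were 170 CPM (range 92.3 to 285) against 116 CPM (range 75.6 to 188), higher in 5 of 6. The 3 Chst9-class markers in Drd1 nuclei were 259 CPM (range 0 to 658) against 419 CPM (range 125 to 768) and were higher in the positive nuclei in 0 of 6 libraries. The 5 oligodendrocyte markers were 158 against 99.4 CPM in Drd1 nuclei, higher in 5 of 6, and 149 against 180 CPM in Drd2 nuclei, higher in 3 of 6. The 4 astrocyte markers were 594 CPM (range 329 to 776) against 480.2 CPM (range 137 to 725), higher in 6 of 6, and in Drd2 nuclei 451 CPM (range 328 to 708) against 604 CPM (range 534 to 704), higher in 1 of 6. In all Drd1 nuclei Slc4a4 gave 511 CPM of this list, and Aqp4, Gja1 and Slc1a3 2.90, 7.53 and 10.2 CPM. In Drd2 nuclei the 4 microglial markers were 40.7 CPM (range 14.6 to 119) against 18.3 CPM (range 3.94 to 32.4), and the 5 Drd2 markers themselves 685 CPM (range 508 to 849.8) against 817 CPM (range 748 to 912), higher in 0 of 6 libraries. Median doublet scores per library ran from 0.346 to 0.544 in positive and from 0.292 to 0.481 in negative Drd2 nuclei. In Drd1 nuclei they ran from 0.308 to 0.533 and from 0.308 to 0.408. Within libraries, Drd2 scores were 0.544 against 0.367 in naloxone replicate 6 and 0.346 against 0.481 in replicate 4. Against all negative nuclei, not matched on depth, the positive median was higher in every library of both classes. The part of doublets was not tested. Markers of glutamatergic neurons were at or near 0 in both kinds of nuclei.

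**Figure D5:**
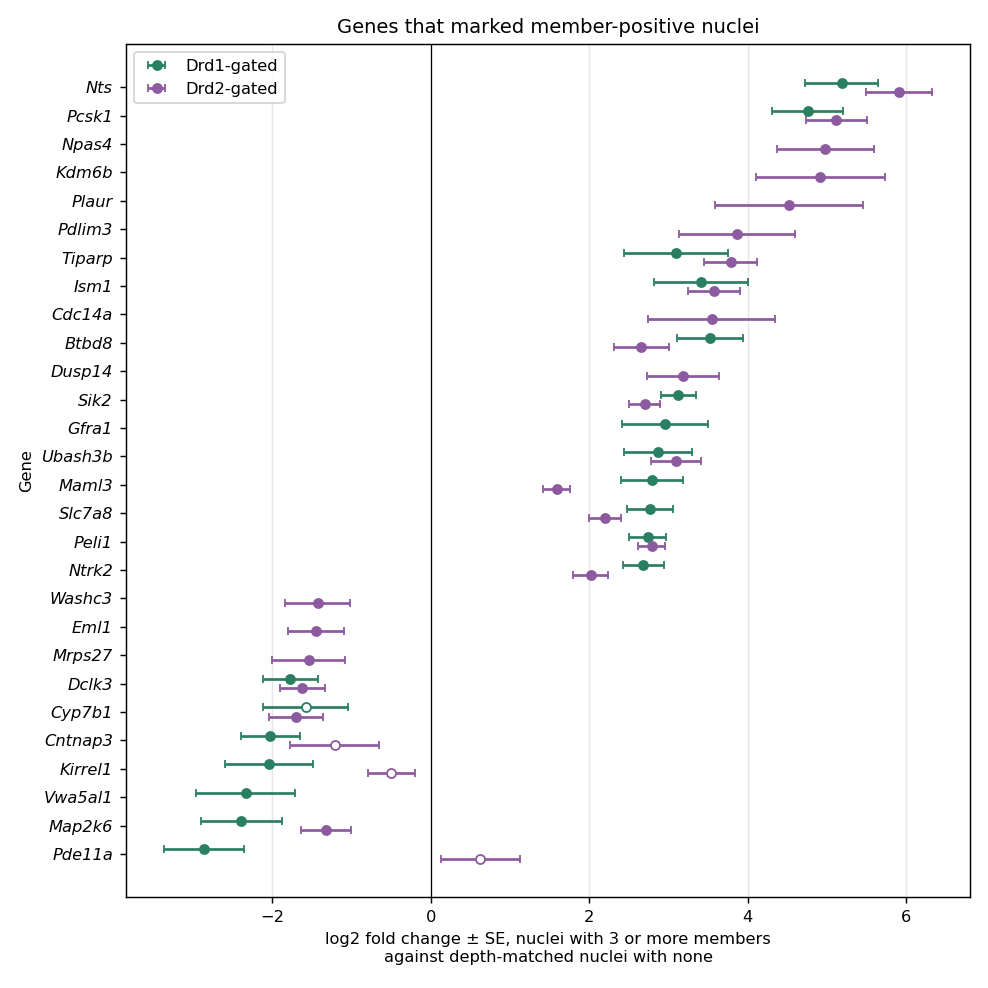
Log2 difference (± SE) between nuclei with at least 3 members and depth-matched nuclei with none, for the named genes in Drd1 and Drd2 nuclei; filled points have an adjusted p under 0.05. Nts and Pcsk1 have the highest values in both classes.

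Across the 48 sums of 8 neuron classes by 6 libraries, the genes most like 3 members were found among 10363 genes with a mean of at least 5 CPM. These correlations describe sums that share libraries, depth and class makeup. Nr4a1 was most like Nr4a3 (Pearson r = 0.766 on log2 CPM), followed by Zswim5 (0.649) and Ptk7 (0.630). Egr1 was most like Chn2 (0.866), Fam78b (0.854) and Trank1 (0.853). Fos had no close match: its best were Ndufs5 (0.556) and Zfp873 (0.507).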

How the data were processed

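Nuclei of 6 libraries were measured by droplet single-nucleus RNA sequencing with a 3′ kit, to about 23000 reads per nucleus per the labels. The deposited values are raw UMI counts for each gene in each barcode. Per the submitters' processing notes the authors made them with Cell Ranger 9.0.1 on the mRatBN7.2 build, and Seurat 5.2.1 and R 4.4.0 are also named. Whether intronic reads were counted is not given in the sources used here.

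Doublets were called from simulated pairs at 0.4% per 1000 nuclei. Gates used marker genes alone; their UMI minimums were set on the markers' own distributions. Neurons needed 10 UMIs of neuronal markers and 3 times the glial UMIs, and spiny neurons 3 of Rgs9 and 5 of Pde10a. The Drd1 gate needed 1 UMI of its markers and 0 of those of Drd2 neurons, the Drd2 gate 2 UMIs of its own, more than 2 times those of Drd1 neurons, and the cholinergic gate 2 of Slc5a7; 28595 nuclei met no gate and 85 several. Clusters used the Leiden method (leidenalg 0.10.2) on 3000 variable genes without the members. Counts were summed per class and library and tested with edgeR 4.0.16 (quasi-likelihood, TMM, default filter) in R 4.3.3, with Benjamini-Hochberg adjustment over all genes of a fit and a threshold of 0.05; DESeq2 1.42.0, RLE factors, no filter, left-out libraries, other gates, clusters, sums by sex and other depths were alternatives. Co-detection used Mantel-Haenszel odds ratios per library with 0.5 added. Intervals of 0 counts use 3 UMIs and cover counting error only.

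The text names every member, and, for member-positive nuclei, the 10 genes with the largest rise and the 5 with the largest fall among those called, with a mean of at least 10 CPM and 6 of 6 libraries in 1 direction, and called genes of the 4 pathway lists. The members, lists, gates and tests were chosen with earlier results of these data known. The edgeR fits were tested on simulated counts with 200 genes shifted by a log2 value of 1. The fits of naloxone against saline recovered 74.5% of them in Drd1 nuclei (12473 genes) and 83.5% in Drd2 nuclei (12595 genes), with 13 and 24 false calls. Those of member-positive against member-negative nuclei recovered 50.5% and 54%. The shifted genes were drawn from all genes that passed the filter, so these rates are not those of the members, which were scarce.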

Additional observations from a re-analysis of the deposited data

Results flagged for a closer look

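Nr4a3 gave the 1 result singled out for a difference between groups. Its naloxone change differed between Drd2 and Drd1 nuclei by 1.38 ± 0.19 (SE) on the log2 scale, tested as the class by treatment term over 12 sums with library as a block (adjusted p 0.000981 by edgeR). The ratio of Drd2 to Drd1 CPM was higher in each of the 3 naloxone libraries than in each of the 3 saline libraries. The ratios of Egr4 and Fosl2 were separated in the same way, and the share of all genes with such separated ratios was not computed. Fosb and Egr4, with larger differences of the naloxone change (2.31 and 1.93), did not pass (adjusted p 0.135 and 0.162 by edgeR).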

How the results depend on the processing

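Of 271 alternative values for the counts and summaries, 244 stayed on the same side or within the range allowed, and of 399 for single members 369 did. The causes of the moves below were not tested, and the alternatives that change the classes by clusters in the Drd2 to Drd1 difference, the Casz1 or Mdfic exclusion and the cluster matching were chosen after seeing the data. Without a filter on low counts, 3 members were called in Drd2 nuclei (Egr4, Fosb and Nr4a3; 1.68% of all genes) and 1 in Drd3/Adamtsl1 nuclei (Nr4a3; 0.197%). Without naloxone replicate 4, 2 were called in Drd2 nuclei (Egr4 and Nr4a3; 0.278%), and with any other library left out 0 were, a range of 0 to 2. With classes from clusters, 1 was called in Drd2 nuclei (Egr4; 0.54%) and 1 in the Casz1/Otof/Mdfic type (Nr4a3; 0.068%), where its log2 change turned to -1.75. The Drd2 to Drd1 difference called 3 members with clusters (Nr4a3, Egr4 and Fosb; 1.39%) and 2 with the Casz1 or Mdfic exclusion (Nr4a3 and Fosb; 0.267%).

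Clusters also turned the log2 change of Egr1 in Drd1 nuclei to 0.081, of Egr1 in the Casz1/Otof/Mdfic type to -0.091 and of Nr4a3 in Kit/Pthlh nuclei to -0.18. Stricter gates turned Egr1 in Drd2 nuclei to -0.079 and Nr4a3 in Chst9 nuclei to -0.21, and left 0 members higher in Drd2 than Drd1 nuclei in all libraries. They could not be fitted for the Casz1/Otof/Mdfic and Sst/Npy/Nos1 nuclei, with under 20 nuclei in a library. Leaving out 1 library moved signs as follows: Egr1 in Drd1 nuclei, -0.27 to 0.20; in Drd2 nuclei Fos -0.68 to 1.47, Egr1 -0.18 to 0.37, Egr3 -0.042 to 0.70 and Nr4a1 -0.28 to 0.62. Nr4a3 ran from -0.29 to 0.70 in Chst9 nuclei and from -0.18 to 0.30 in the Casz1/Otof/Mdfic type. The class difference ran from -0.46 to 2.33 for Fos and from -0.36 to 0.61 for Egr1. Egr3 CPM in Drd2 minus Drd1 nuclei ran from -0.159 to 0.454.

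Thinning to 2000 UMIs left 8 of 28 pairs with a mean log2 odds ratio above 0 in Drd1 nuclei, a median of -0.026 there and of 0.55 in Drd2 nuclei. For member-positive nuclei, leaving out 1 library gave 129 to 223 genes higher and 28 to 71 lower in Drd1 nuclei, and 247 to 340 higher and 58 to 93 lower in Drd2 nuclei. Without depth matching the counts were 330 and 323 in Drd1 and 651 and 376 in Drd2 nuclei. DESeq2 gave 22 lower in Drd1 nuclei, and 233 higher and 19 lower in Drd2 nuclei. A cut at 2 members gave 129 lower in Drd1 nuclei. No paired analysis was possible because the saline replicates are numbered 1 to 3 and the naloxone replicates 4 to 6, so that the groups share no number.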

Other observations

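Some members were present in glial or vascular nuclei at mean levels within or above the range of the neuron classes. Nr4a1 stood at 16.8 ± 6.79 CPM (SD, n = 6 libraries) in oligodendrocyte precursors, above oligodendrocytes (2.53 ± 2.58 CPM) in 6 of 6 libraries and above Drd2 nuclei in 5, from 36 UMIs in all. Nr4a3 stood at 9.32 ± 3.02 CPM in astrocytes, above oligodendrocytes in 6 of 6 libraries and above Drd2 nuclei in 0. Fosl2 stood at 21.8 ± 15.1 CPM in microglia and 37.1 ± 32.6 CPM in endothelial nuclei, from 22 and 11 UMIs, so that these 2 means rest on few molecules.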
